A study of Mus musculus with 12 samples.

Results

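The mitochondrial protein import machinery was followed here as 35 nuclear genes, found by symbol among the 44450 loci listed for each RNA sequencing library of mouse heart. The genes were chosen by function, as subunits of the outer membrane translocase and sorting complex, of the inner membrane translocases and their motor, of the intermembrane space import system and of the presequence protease. All 35 had a single locus, and all 35 reached 1 FPKM (fragments counted per kilobase of transcript and scaled to library size) in at least 3 of the 6 libraries, as did 12181 loci in all. The knockout group held 3 libraries from hearts of Mrpp3 loxP/loxP, +/Ckmm mice, and the control group held 3 libraries from hearts of Mrpp3 loxP/loxP mice. Both groups were C57BL/6N and 11 weeks old, and both carried the loxP-flanked Mrpp3 gene, whereas only the knockouts carried the Ckmm allele. Ckmm stands for the muscle creatine kinase promoter, which drives Cre recombinase in heart and skeletal muscle, so the other cells of the heart keep the gene. An effect of Cre itself and that of the deletion cannot be told apart. The 6 libraries of mitochondrial RNA ends from the same series were not analysed here.

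Nearly all mitochondrial proteins are made in the cytosol and must be imported. Precursors pass the outer membrane through the TOM complex. Those with a presequence then go through the TIM23 channel of the inner membrane, pulled in by a motor built on the mitochondrial heat shock protein of the HSP70 class, and lose the presequence to a matrix protease. Carrier proteins take another route, with small TIM chaperones leading them across the intermembrane space to the TIM22 channel, and small cysteine-rich proteins are trapped in that space by a disulfide relay. In heart muscle this system feeds the large mitochondrial volume that contraction depends on. MRPP3, the protein lost in the knockouts and now named PRORP, is the nuclease that trims the 5′ ends of mitochondrial tRNAs, and it is itself one of the imported proteins.

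The labels were checked first. Prorp, listed under an older name, had 0.441, 0.701 and 0.555 FPKM in the knockout libraries, against 3.49, 2.64 and 3.23 FPKM in the control libraries. The 8 ventricular cardiomyocyte markers summed to 7612 to 16601 FPKM in knockouts and 34515 to 39735 FPKM in controls, and 7 of them passed the test as lower. Of 5 macrophage markers 4 passed as higher, with sums of 162 to 176 FPKM in knockouts and 114 to 124 FPKM in controls. The 5 endothelial markers summed to 238 to 314 FPKM in knockouts and 265 to 307 FPKM in controls, with none called, and the 5 fibroblast markers to 258 to 344 FPKM in knockouts and 267 to 331 FPKM in controls, with 2 called higher. Knockout replicate 2 stood apart: its 3 atrial markers summed to 3320 FPKM, against 118 and 3.44 FPKM in the other knockouts and 1.65 to 6.75 FPKM in controls, and its 5 erythroid markers summed to 21896 FPKM, against 622 to 2902 FPKM in the other 5 libraries. Judged by the smallest steps among low values, the knockout libraries were 2.06 to 2.57 times as deep as control replicate 1, and the other controls 1.32 and 1.35 times as deep. Whether cell makeup or depth had a part in the results below was not tested.

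The import machinery did not move as a block. Relative to controls, knockout hearts had less RNA of 6 of the 35 genes (Dnajc19, Timm21, Timm23, Tomm40l, Timm22 and Mtx3) and more of 3 (Grpel2, Gfer and Timm10b), while 26 did not pass the test. The test was limma on log2(FPKM + 0.5), with Benjamini-Hochberg adjustment over all 12181 loci and a threshold of 0.05. The 9 genes called are 25.7% of the machinery, against 35.7% of all tested loci called in either direction. By direction, 8.57% of import genes were higher against 16.1% of all loci, and 17.1% were lower against 19.5%. At least 2-fold changes were called for 1 gene as higher (2.86%, against 5.8% of all loci) and for 2 as lower (5.71%, against 6.76%). The median log2 fold change, knockout over control, was -0.03 for the 35 genes and -0.02 for all tested loci. The knockout and control libraries did not overlap for 13 of the 35 genes (37.1%), 4 with the knockouts above and 9 with them below, while 52.3% of all tested loci had groups that did not overlap (23.6% with the knockouts above and 28.7% with them below). Scaling each library to the same summed FPKM raised the median of all loci to 0.20 and that of the import genes also to 0.20, and the import genes then split into 9 higher and 2 lower (all loci 3229 higher and 1400 lower, against 1966 and 2377 without it). In these bulk samples, fewer cells of a type and less RNA per cell cannot be told apart.

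Control hearts held the import genes at mean levels of 2.00 to 161 FPKM, a unit scaled to transcript length, which lets levels be compared between genes. Timm23 stood at the top of the control order with 161 ± 37.6 FPKM (SD, n = 3), followed by Timm8b (125 ± 8.13 FPKM), Timm17a (99.9 ± 1.36 FPKM), Samm50, Pmpcb, Dnajc15 and Tomm5. The lowest were Timm8a1 (2.00 ± 0.468 FPKM), Mtx3 (3.82 ± 0.281 FPKM), Grpel2 (4.58 ± 0.340 FPKM), Pam16 and Gfer. Of the 34 neighbouring pairs in the control order 23 had overlapping ranges, so only the broad steps of the order are firm. Among knockouts Timm17a (105 ± 27.7 FPKM) and Dnajc15 (102 ± 32.4 FPKM) had the highest means and Timm23 had the mean ranked 5. The ranges of the first 8 genes, down to Timm10, overlapped. Together the 35 genes took 0.290, 0.208 and 0.281% of the summed FPKM in knockout replicates 1 to 3, and 0.246, 0.250 and 0.252% in the controls.

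**Figure D1:**
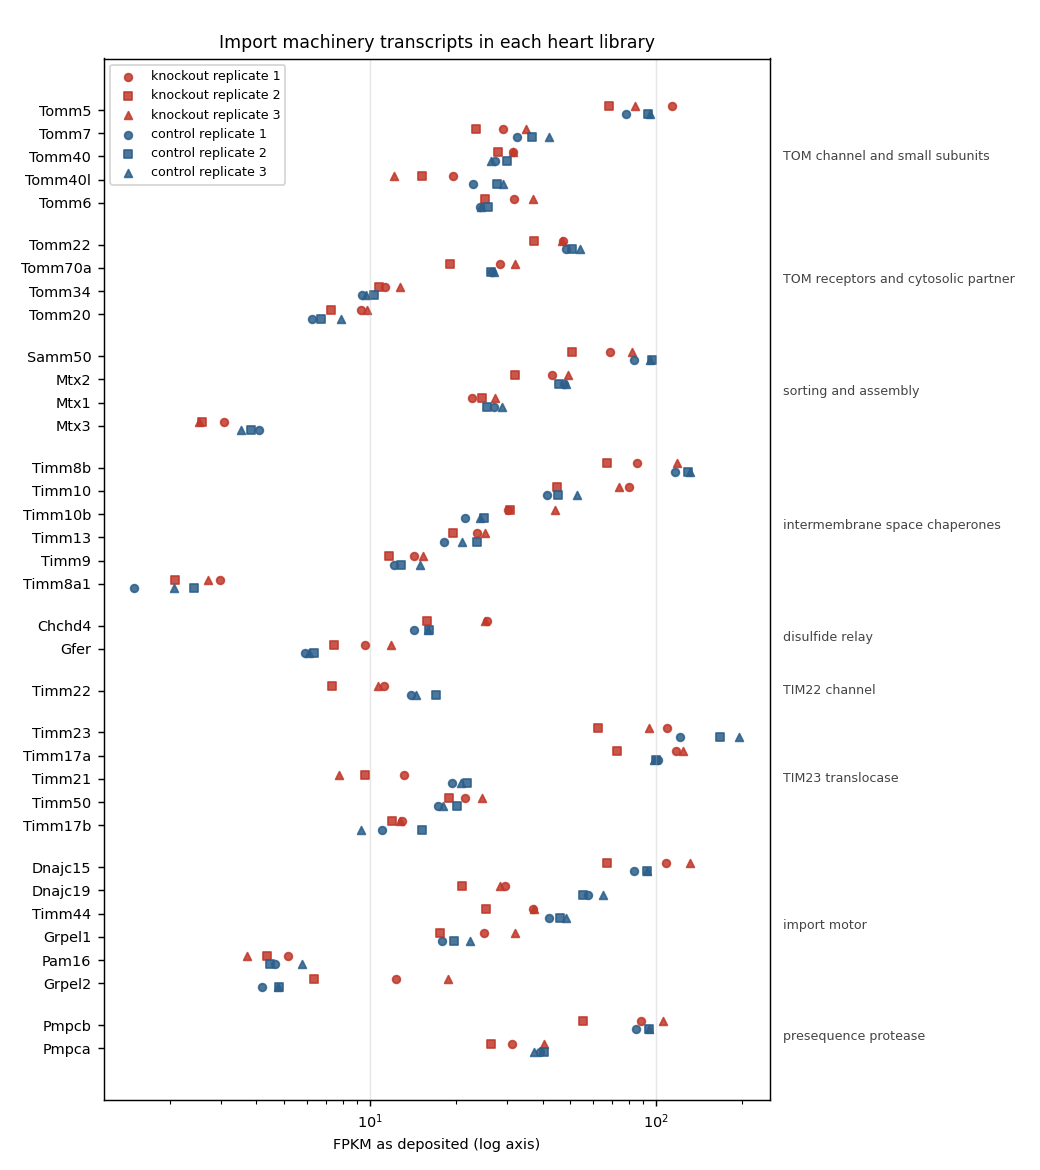
Level of each of the 35 import genes in every library, on a log axis of FPKM, grouped by role, with knockout libraries in red above control libraries in blue and the marker shape giving the replicate. The 3 knockouts lie to the left of all 3 controls for Dnajc19, Timm21 and Timm23, and to the right for Grpel2, Gfer and Timm10b.

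At the outer membrane entry gate, a relative of the channel gene was lower, and the channel gene and its small partners did not pass the test. Tomm40, which encodes the channel of the TOM complex, had 31.5, 27.9 and 31.4 FPKM in knockouts, against 27.4, 30.0 and 26.5 FPKM in controls. The groups overlapped, and the 95% interval of its log2 fold change ran from -0.16 to 0.38 (estimate 0.11, limma adjusted p = 0.48). Tomm40l, a relative of Tomm40 (locus XLOC_003057, chromosome 1, 171217802 to 171222514 of GRCm38.p6), had 19.4, 15.2 and 12.1 FPKM in knockouts, against 22.8, 27.8 and 29.2 FPKM in controls. Every knockout library lay below every control, and Tomm40l fell by 0.77 on the log2 scale (SE 0.19, limma adjusted p = 0.018). This call was lost without control replicate 2 or 3 (adjusted p = 0.066 and 0.068) and with each library scaled to the same sum (adjusted p = 0.066).

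The small subunits Tomm5, Tomm6 and Tomm7, which steady the channel complex, did not pass. Tomm5 averaged 88.9 ± 23.01 FPKM in knockouts and 89.0 ± 9.13 FPKM in controls. Tomm6, whose locus also carries the names Gm21981 and Prickle4, averaged 31.4 ± 5.94 FPKM in knockouts and 24.8 ± 0.832 FPKM in controls (limma adjusted p = 0.15). Tomm7 averaged 29.2 ± 5.73 FPKM in knockouts and 37.1 ± 4.76 FPKM in controls (limma adjusted p = 0.16). With each library scaled to the same sum Tomm6 passed as higher (limma adjusted p = 0.015). It also did under quantile normalization (0.033), with array weights (0.017) and without knockout replicate 2 (0.018). Tomm7 passed as lower with array weights (limma adjusted p = 0.038).

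None of the receptors that recognise precursors on the mitochondrial surface passed the test. Tomm20, the receptor for presequences, had 9.25, 7.28 and 9.71 FPKM in knockouts, against 6.24, 6.74 and 7.93 FPKM in controls, and the groups overlapped. Tomm22, the central receptor that also organises the complex, had 47.4, 37.4 and 46.7 FPKM in knockouts, against 48.2, 50.5 and 53.9 FPKM in controls, so the knockouts lay just below all controls. Tomm70a, where carrier precursors dock with their cytosolic chaperones, averaged 26.5 ± 6.81 FPKM in knockouts and 26.7 ± 0.395 FPKM in controls. Tomm34, a cytosolic co-chaperone that binds the HSP70 and HSP90 proteins, had 11.2, 10.7 and 12.7 FPKM in knockouts, above the 9.36, 10.3 and 9.63 FPKM of controls. Their limma adjusted p values were 0.15, 0.24, 0.88 and 0.16. With each library scaled to the same sum Tomm20 and Tomm34 passed as higher (limma adjusted p = 0.018 and 0.014). Tomm20 also passed with array weights (0.018) and without knockout replicate 2 (0.048).

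Of the 4 sorting and assembly genes, which place barrel-shaped proteins into the outer membrane, Mtx3 fell and the other 3 did not pass. Samm50, the insertase of this complex, had 68.9, 50.9 and 82.3 FPKM in knockouts, against 83.4, 96.6 and 94.9 FPKM in controls (log2 fold change -0.47, 95% interval -0.91 to -0.02, limma adjusted p = 0.094). The 2 groups did not overlap, but knockout replicate 3 and control replicate 1 nearly met. Samm50 passed as lower without knockout replicate 3 (-0.62, limma adjusted p = 0.032), under quantile normalization (0.035) and with array weights (0.012). Mtx1 and Mtx2, the metaxins on the cytosolic face of the complex, had log2 fold changes of -0.13 and -0.21 with overlapping groups, or 0.10 and 0.02 with each library scaled to the same sum. Mtx3, another metaxin (locus XLOC_009816, chromosome 13, 92844743 to 92858230), had 3.09, 2.59 and 2.53 FPKM in knockouts, against 4.09, 3.84 and 3.53 FPKM in controls. It fell by 0.42 on the log2 scale (SE 0.13, limma adjusted p = 0.042). The call was lost in 9 of 15 alternative settings, including without control replicate 1, 2 or 3 (adjusted p = 0.13, 0.12 and 0.075), without knockout replicate 2 or 3 (0.081 and 0.088) and with each library scaled to the same sum (log2 fold change -0.24, adjusted p = 0.31), and it is the least firm of the 9.

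In the intermembrane space, 1 of the 2 genes of the disulfide relay, Gfer, rose and Chchd4 did not pass, and of the 6 small TIM chaperones 1 rose. Gfer, the sulfhydryl oxidase that recharges the relay (locus XLOC_015819, chromosome 17, 24693190 to 24696156), had 9.55, 7.49 and 11.9 FPKM in knockouts, against 5.89, 6.34 and 6.11 FPKM in controls. All knockouts exceeded all controls, and Gfer rose by 0.59 on the log2 scale (SE 0.17, limma adjusted p = 0.030). The adjusted p of Gfer was 0.073 and 0.053 without knockout replicate 1 or 3, 0.090, 0.077 and 0.083 without control replicate 1, 2 or 3, and 0.059 with no filter on low values. Chchd4, the oxidoreductase that folds incoming proteins by making their disulfide bonds, had 25.7, 15.8 and 25.2 FPKM in knockouts, against 14.3, 15.99 and 15.9 FPKM in controls. Knockout replicate 2 sat within the controls and the other knockouts were well above them. Chchd4 did not pass in the main setting (log2 fold change 0.49, 95% interval 0.03 to 0.94, limma adjusted p = 0.088). It passed without knockout replicate 2 (0.71, adjusted p = 0.0036). With all libraries it also passed when scaled to the same sum (0.72, limma adjusted p = 0.015), under quantile normalization (0.044) and with array weights (0.0027).

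Among the 6 small TIM chaperones, which escort membrane proteins across the intermembrane space as hexamers, Timm10b passed. Timm10b, a subunit attached to the TIM22 complex, shares its locus with Dnhd1 (XLOC_034044), so the share of each gene in the value is unknown. The locus had 30.3, 30.9 and 44.3 FPKM in knockouts, against 21.4, 25.0 and 24.2 FPKM in controls, with no overlap, and rose by 0.55 on the log2 scale (SE 0.17, limma adjusted p = 0.041). It did not pass without knockout replicate 3 (0.38, adjusted p = 0.051) without control replicate 1, 2 or 3 (adjusted p = 0.13, 0.090 and 0.099), or with no filter on low values (0.069).

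Timm10, which forms hexamers with Timm9, had 80.4, 45.0 and 74.2 FPKM in knockouts, against 41.6, 45.3 and 52.7 FPKM in controls. Knockout replicate 2 again lay among the controls, and the limma adjusted p was 0.15 in the main setting and 0.0065 without that library. With all libraries Timm10 also passed as higher when scaled to the same sum (limma adjusted p = 0.029), under quantile normalization (0.049) and with array weights (0.0041). Its partner Timm9 averaged 13.7 ± 1.86 FPKM in knockouts and 13.3 ± 1.45 FPKM in controls. Timm8b, the most abundant chaperone of the 6 in controls, had 85.5, 67.1 and 118 FPKM in knockouts, against 116, 129 and 131 FPKM in controls, with a narrow overlap (log2 fold change -0.50, limma adjusted p = 0.10). Timm13 and Timm8a1, which can form a hexamer together, averaged 22.8 ± 2.92 and 2.59 ± 0.468 FPKM in knockouts and 20.9 ± 2.81 and 2.00 ± 0.468 FPKM in controls, and neither passed (limma adjusted p = 0.56 and 0.25).

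The channel genes of both inner membrane translocases were lower in the knockout. Timm22, the insertion channel for carrier proteins (locus XLOC_005637, chromosome 11, 76406925 to 76416313), had 11.2, 7.32 and 10.7 FPKM in knockouts, against 13.9, 17.0 and 14.4 FPKM in controls. The groups did not overlap, and Timm22 fell by 0.63 on the log2 scale (SE 0.18, limma adjusted p = 0.030). Without control replicate 1, 2 or 3 its adjusted p was 0.064, 0.11 and 0.075, with no filter on low values 0.059 and with equal sums 0.087. Timm23, the channel for proteins with a presequence, had 109, 62.7 and 94.3 FPKM in knockouts, against 121, 167 and 195 FPKM in controls, at a locus that also carries the name Gm23946 (XLOC_011849, chromosome 14, 32180166 to 32201891 for Timm23). The highest knockout lay close below the lowest control. Timm23 fell by 0.87 on the log2 scale (SE 0.26, limma adjusted p = 0.035), and the call was lost without knockout replicate 2 or 3 (-0.64 and -0.93, adjusted p = 0.051 and 0.053), without control replicate 2 or 3 (adjusted p = 0.11 and 0.12), with no filter (0.071) and with equal sums (0.054).

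Of the other TIM23 subunits, Timm21 fell and the rest did not pass. Timm21, which connects the translocase to the TOM complex and in human cells to subunits of the respiratory chain under assembly, lies on chromosome 18 (84946191 to 84951530, locus XLOC_017282). It had 13.1, 9.62 and 7.75 FPKM in knockouts, against 19.3, 21.8 and 20.8 FPKM in controls, a wide gap. The log2 fold change of Timm21 was -1.02 (SE 0.19, 95% interval -1.45 to -0.58, limma adjusted p = 0.0058), and it passed in all 15 alternative settings. Timm17a, a core subunit paired with Timm23, had 117, 73.0 and 124 FPKM in knockouts, on both sides of the 101, 99.8 and 98.5 FPKM of controls. Its relative Timm17b averaged 12.5 ± 0.511 FPKM in knockouts and 11.8 ± 3.05 FPKM in controls. Timm50, the receptor that hands presequences to the channel, averaged 21.6 ± 2.86 FPKM in knockouts and 18.4 ± 1.49 FPKM in controls (limma adjusted p = 0.24). With equal sums Timm50 passed as higher (0.45, limma adjusted p = 0.020).

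**Figure D2:**
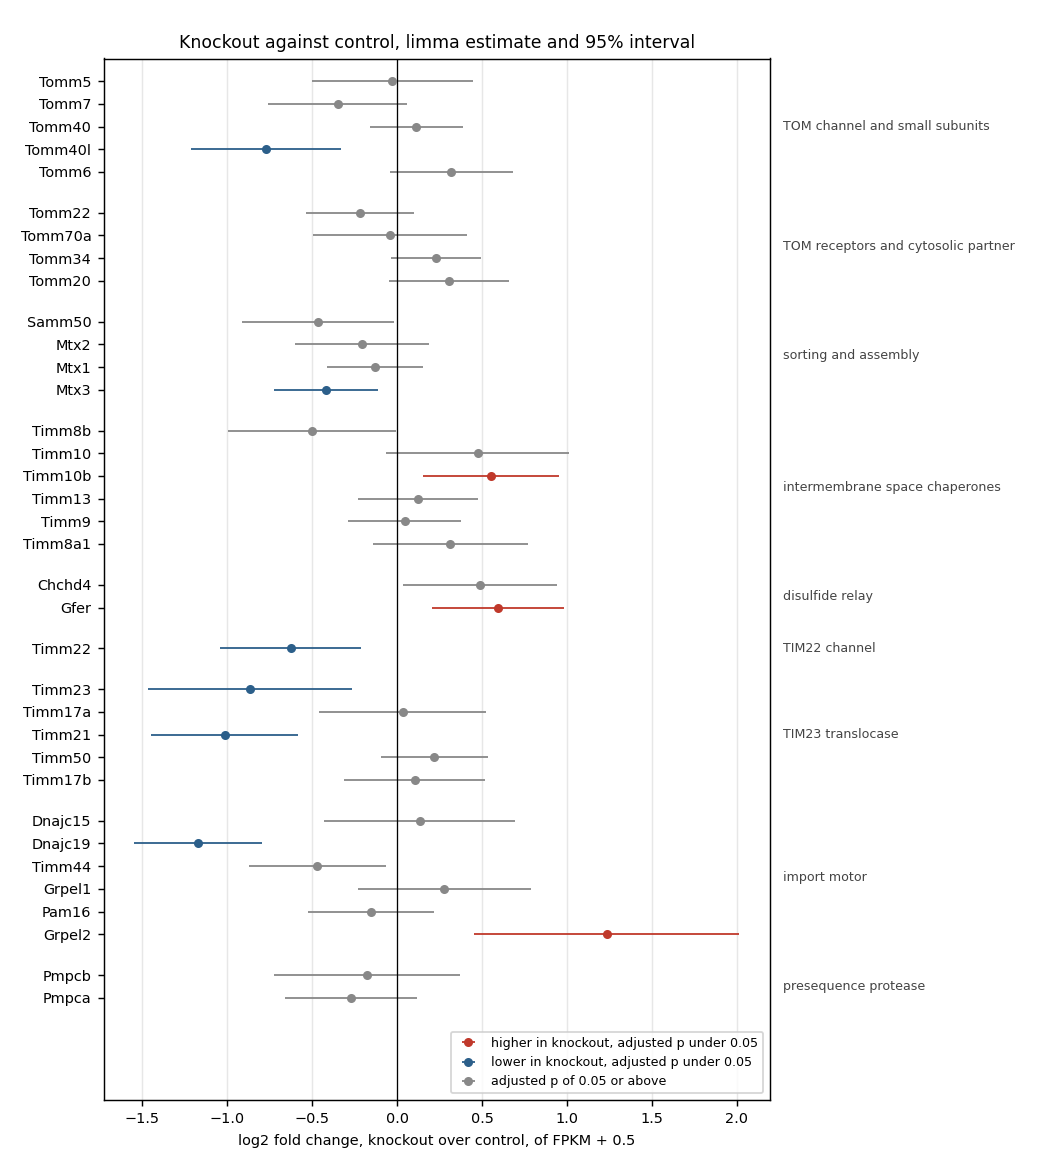
Log2 fold change of each import gene, knockout over control, with its 95% interval from limma, grouped by role; red and blue points passed an adjusted p of 0.05 as higher and lower, and grey points did not. Dnajc19 (-1.17) and Timm21 (-1.02) lie farthest to the left and Grpel2 (1.23) farthest to the right, while 25 of the 26 grey intervals stay between -1 and 1.

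The import motor held both the largest fall and the largest rise of the 35 genes. Dnajc19, a membrane-bound J-protein that switches on the motor's HSP70 and whose loss in humans causes dilated cardiomyopathy with ataxia, had 29.5, 20.9 and 28.5 FPKM in knockouts, against 57.8, 55.3 and 65.0 FPKM in controls (locus XLOC_023465, chromosome 3, 34057280 to 34081354). No knockout came near the controls. Dnajc19 fell by 1.17 on the log2 scale (SE 0.16, 95% interval -1.55 to -0.79, limma adjusted p = 0.0021) and passed in all 15 alternative settings. Its relative Dnajc15 had 108, 67.2 and 131 FPKM in knockouts, against 83.8, 93.1 and 92.8 FPKM in controls, with knockout replicate 2 below and the other knockouts above the controls (limma adjusted p = 0.69, or 0.042 without knockout replicate 2 at a log2 fold change of 0.41).

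Grpel2, a nucleotide exchange factor that resets the motor's HSP70 (locus XLOC_017171, chromosome 18, 61712424 to 61726358), had 12.3, 6.37 and 18.7 FPKM in knockouts, against 4.19, 4.81 and 4.75 FPKM in controls. All knockouts exceeded all controls, but they differed widely among themselves. Grpel2 rose by 1.23 on the log2 scale (SE 0.33, 95% interval 0.45 to 2.01, limma adjusted p = 0.026). The call was lost without knockout replicate 1 (1.18, adjusted p = 0.071), without control replicate 1, 2 or 3 (adjusted p = 0.079, 0.066 and 0.070) and with no filter on low values (0.062). Grpel1, the other exchange factor, had 25.0, 17.5 and 32.2 FPKM in knockouts, against 17.8, 19.7 and 22.3 FPKM in controls (log2 fold change 0.28, limma adjusted p = 0.35), and passed without knockout replicate 2 (0.50, adjusted p = 0.041).

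Timm44, which tethers the motor to the channel, had 37.1, 25.3 and 37.2 FPKM in knockouts, against 42.3, 46.2 and 48.2 FPKM in controls. The groups did not overlap, yet it did not pass (log2 fold change -0.47, 95% interval -0.88 to -0.07, limma adjusted p = 0.070). It passed as lower under quantile normalization (limma adjusted p = 0.041) and with array weights (0.029). Pam16, whose yeast counterpart is a J-like protein that restrains the motor's J-protein, averaged 4.41 ± 0.719 FPKM in knockouts and 4.96 ± 0.712 FPKM in controls. At the end of the route, Pmpca and Pmpcb, the subunits of the protease that cuts off presequences, averaged 32.7 ± 7.12 and 83.1 ± 25.6 FPKM in knockouts and 39.1 ± 1.53 and 91.1 ± 5.40 FPKM in controls. Neither passed (limma adjusted p = 0.24 and 0.58). Pmpca passed as lower without knockout replicate 3 (log2 fold change -0.43, limma adjusted p = 0.036) and with array weights (-0.32, 0.029).

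Several of these genes are pairs of relatives with the same kind of role, and the ratio within the pair was compared for 5 of them. The knockout and control ratios did not overlap for 4 pairs, and no ratio passed a test. The levels of 52.3% of single loci did not overlap either, but a share for ratios of 2 loci is not given here. The log2 ratio of Dnajc15 to Dnajc19 was 1.86, 1.66 and 2.18 in knockouts, against 0.53, 0.75 and 0.51 in controls, a difference of 1.30, so the ratio was 2.47-fold higher in the knockout. The log2 ratio of Tomm40 to Tomm40l was 0.68, 0.86 and 1.34 in knockouts, against 0.26, 0.11 and -0.14 in controls, a difference of 0.89. For Grpel1 over Grpel2 it was 0.99, 1.39 and 0.76 in knockouts, against 1.97, 1.92 and 2.12 in controls, a difference of -0.95.

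The log2 ratio of Timm8a1 to Timm8b averaged -4.85 ± 0.32 in knockouts and -5.67 ± 0.20 in controls, and that of Timm17a to Timm17b averaged 2.98 ± 0.36 in knockouts and 3.05 ± 0.34 in controls with overlapping groups. Each of the 4 ratios without overlap gave an exact two-sided permutation p of 0.10, the smallest that 3 against 3 libraries allow, or 0.125 adjusted over the 5 ratios, so none could pass 0.05. For Timm17a over Timm17b the exact permutation p was 0.60.

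**Figure D3:**
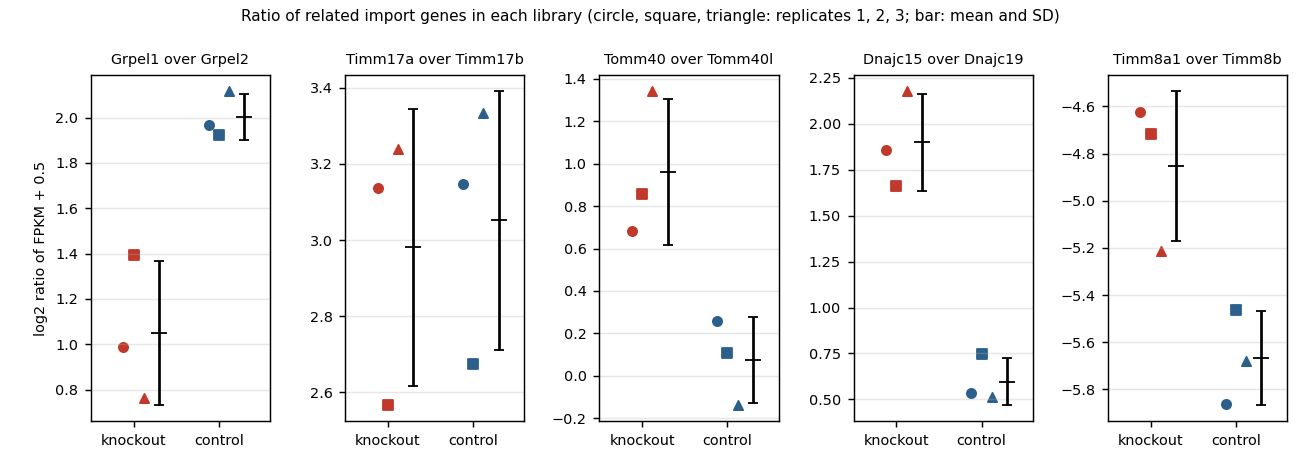
Log2 ratio of FPKM + 0.5 between related import genes in each library, knockouts in red left of controls in blue, with the mean and SD over 3 libraries beside the points; each panel has its own axis. The groups are apart for 4 of the 5 pairs and overlap for Timm17a over Timm17b.

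The import genes varied more among knockouts than among controls, and knockout replicate 2 was usually the lowest of them. The median SD of log2 values was 0.31 in knockouts and 0.10 in controls for the import genes, and 0.22 and 0.13 for all tested loci. All 35 genes were lower in knockout replicate 2 than the mean of the other 2 knockouts, by -0.44 on the log2 scale at the median, whereas 56.5% of all tested loci were (median -0.06). That library was the lowest knockout for 29 of the 35 genes (82.9%), against 43.8% of all tested loci. The differences of knockout replicate 2 ranged from -1.19 for Grpel2, -0.82 for Dnajc15 and -0.80 for Pmpcb to values near 0 for Pam16, Mtx1 and Tomm40l. This is the library in which the atrial and erythroid markers were high and the sum of the ventricular markers was lowest, and their part in these values was not tested.

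Without knockout replicate 2 the median log2 fold change of the import genes was 0.14, against -0.02 for all loci, and 9 import genes were higher and 4 lower. The 6 genes that then joined Grpel2, Gfer and Timm10b as higher were Tomm6, Tomm20, Timm10, Dnajc15, Grpel1 and Chchd4. The 4 lower ones were Dnajc19, Timm21, Tomm40l and Timm22, so Timm23 and Mtx3 were no longer called. Of all 12181 tested loci 37.3% were called without this library, 2153 higher and 2389 lower. Leaving out knockout replicate 3 instead gave 1 import gene higher and 7 lower, with 33.7% of all loci called.

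**Figure D4:**
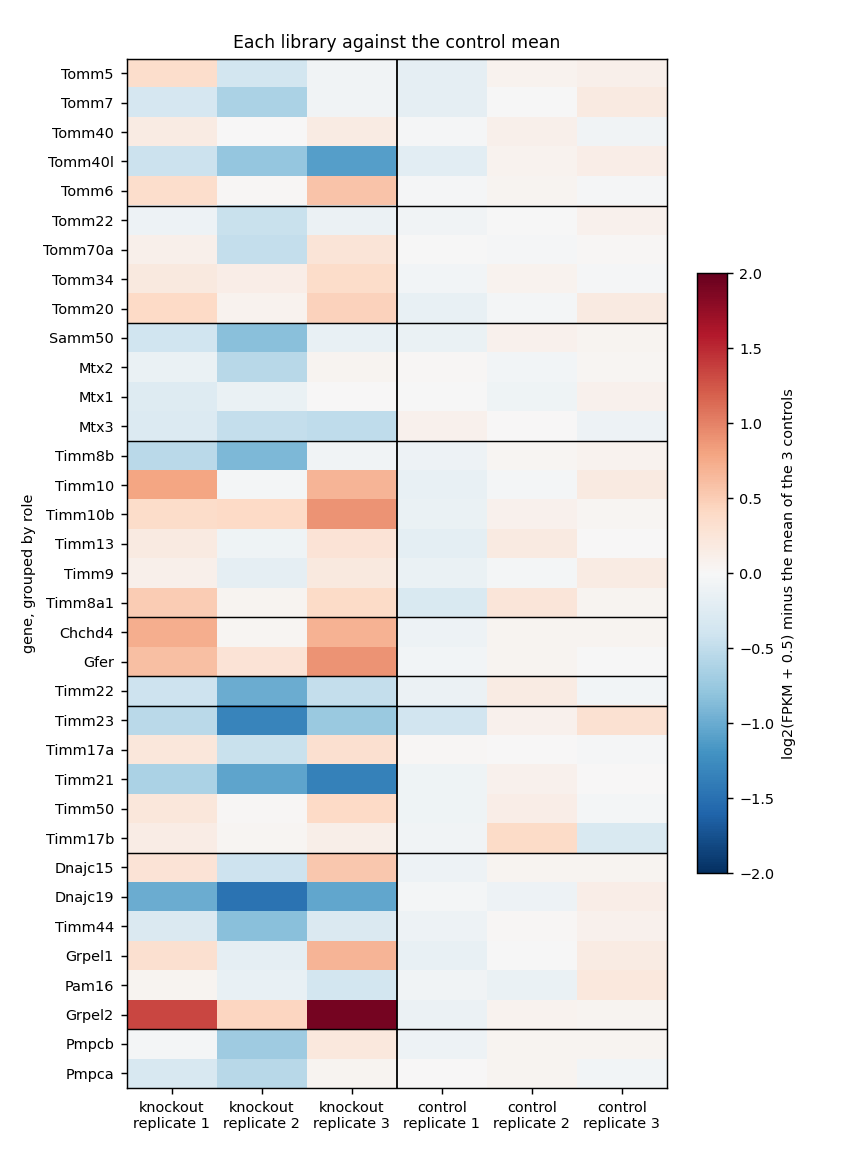
Log2(FPKM + 0.5) of each import gene in each library minus the mean of the 3 controls, red above and blue below that mean, with genes grouped by role in the order of the plot of levels. The column of knockout replicate 2 is bluer than its neighbours for nearly every gene, and the rows of Dnajc19, Timm21, Timm22 and Timm23 are blue in all 3 knockouts.

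Of 22 further genes of import, maturation and precursor chaperoning outside the 35, 9 passed the test (40.9%, against 35.7% of all loci), 1 higher and 8 lower. The gene that rose was Hspa9, the HSP70 that drives the motor. It had 401, 337 and 472 FPKM in knockouts, against 230, 231 and 240.4 FPKM in controls, and rose by 0.77 on the log2 scale (SE 0.17, limma adjusted p = 0.013, or 0.063 without control replicate 2). The largest fall was of Dnaja1, a cytosolic J-protein that helps keep precursors unfolded, with 8.74, 8.31 and 8.72 FPKM in knockouts, against 23.6, 32.8 and 29.9 FPKM in controls (log2 fold change -1.67, limma adjusted p = 0.00042). Its locus also carries the name of Mir207. Immp1l, a protease of the inner membrane, averaged 12.0 ± 2.92 FPKM in knockouts and 27.6 ± 1.53 FPKM in controls (log2 fold change -1.19, limma adjusted p = 0.0032). Mipep, which trims some precursors after the presequence protease, averaged 15.1 ± 1.88 FPKM in knockouts and 27.9 ± 1.76 FPKM in controls (log2 fold change -0.87, limma adjusted p = 0.0028). With each library scaled to the same sum the 22 genes split into 7 higher and 6 lower (all loci 3229 and 1400), so this split depends on the scaling. Beside these, all 8 of a list of 8 stress genes, ATF4 itself and targets of that transcription factor, were higher, against 16.1% of all loci. Their median log2 fold change was 4.65. The list was chosen with earlier results of these data known, so this count is a description only.

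The promoters of the import genes were searched for elements of factors that act on stress and mitochondrial genes. RefSeq windows of 250 bases before to 50 bases after the transcription start (GRCm38.p6) were found for 31 of the 35 genes, 33 windows in all. 3 motifs were searched on both strands, each of 8 letters. The composite element bound by ATF4 and its C/EBP partners, TGATGNAA, was in 0 of the 33 windows, against 3.97% of all 32851 windows. The cyclic AMP response element, TGACGTCA, was likewise in 0 of 33, against 1.79% of all windows. The core of the element of nuclear respiratory factor 1 (NRF1), CGCATGCG, was in 1 of 33, against 1.87%. The search says only which letters lie in these windows, and a match is a description, not a binding site. The match lay in the Timm13 window, which held neither other motif, from base -193 to base -186 relative to the start (50 bases of chr10:80901120-80901169, minus strand, with the NRF1 core in capitals):
Timm13: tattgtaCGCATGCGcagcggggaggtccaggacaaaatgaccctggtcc

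The windows of import genes held a median of 20 of the dinucleotide CG (range 7 to 55) and a median GC content of 58.7%, against medians of 7 and 52.7% over all windows. All windows cover 27025 genes, whether or not expressed in these hearts, so this is not a comparison with other expressed genes. The 150 bases before the start are shown for the J-protein pair whose balance differed most between groups and for both genes of the disulfide relay, with each CG in capitals. Dnajc19 (chr3:34081355-34081504) and Dnajc15 (chr14:77874918-77875067) had 8 and 10 CG, and Gfer (chr17:24696157-24696306) and Chchd4 (chr6:91473424-91473573) had 21 and 13, all on the minus strand. They are printed as a description of these promoters:
Dnajc19: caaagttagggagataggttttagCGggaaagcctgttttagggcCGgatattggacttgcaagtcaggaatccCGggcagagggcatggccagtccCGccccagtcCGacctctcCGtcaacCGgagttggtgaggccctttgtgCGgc
Dnajc15: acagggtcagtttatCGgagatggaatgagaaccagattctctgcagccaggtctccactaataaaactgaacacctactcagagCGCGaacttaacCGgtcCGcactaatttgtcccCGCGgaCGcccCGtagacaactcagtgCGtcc
Gfer: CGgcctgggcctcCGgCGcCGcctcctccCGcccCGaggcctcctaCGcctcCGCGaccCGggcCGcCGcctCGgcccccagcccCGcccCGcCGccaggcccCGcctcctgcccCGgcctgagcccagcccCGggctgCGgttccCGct
Chchd4: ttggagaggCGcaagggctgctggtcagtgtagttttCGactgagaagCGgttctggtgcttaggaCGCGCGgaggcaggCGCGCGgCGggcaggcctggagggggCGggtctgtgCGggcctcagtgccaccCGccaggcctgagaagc

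Across the main setting and the 15 alternatives, the 35 genes fell into 3 sorts. Timm21 and Dnajc19 were called lower in every setting. A further 13 genes were called in none: Tomm40, Tomm5, Tomm22, Tomm70a, Mtx1, Mtx2, Timm8a1, Timm9, Timm13, Timm17a, Timm17b, Pam16 and Pmpcb. The other 20 were called in some settings and not in others, and the counts ran from 0 to 9 higher and from 2 to 11 lower. The shares of all loci called in every setting or in none are not given here, so these 3 counts have no background beside them. Calls over all loci moved as well, from 17.5% with no filter on low values to 51.1% with array weights. None of the 9 called genes changed sign in any alternative.

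**Figure D5:**
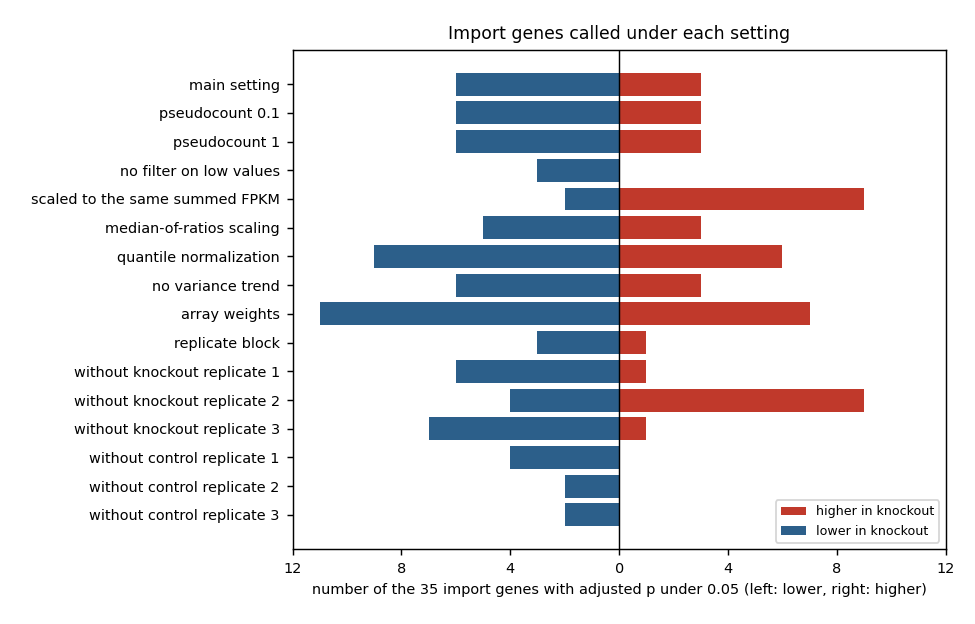
Number of the 35 import genes with an adjusted p under 0.05 in the main setting and each alternative, lower in the knockout to the left and higher to the right. The main setting gives 6 lower and 3 higher (35.7% of all loci called). Without knockout replicate 2 there are 9 higher and 4 lower (37.3% of all loci). Without any 1 of the controls there are 0 higher and 2 to 4 lower (21.5 to 23% of all loci).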

How the data were processed

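3 knockout and 3 control RNA sequencing libraries of heart were used, grouped by source name and genotype. Per the labels' protocols, total RNA was made into TruSeq libraries with random hexamers after Ribo-Zero depletion. The deposited values are FPKM per locus, 1 library per file, per the file headers and names. The tools listed, per the submitters' processing notes, are bedtools, Cuffdiff, Cufflinks 2.2.1, HISAT 0.1.6, HISAT2 2.0.1, Picard 1.23, SAMtools 1.3 and StringTie 1.1.0 and the builds GRCm38 and mm10. Which tool did what here, the annotation, any scaling between libraries and the use of strand: not given in the sources used here. Depth is not stated; it was read as the most frequent ratio of values below 1 FPKM at pseudogene and small RNA loci. The files hold no locus lengths or counts, so no counting interval is given.

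Loci reaching 1 FPKM in 3 or more of the 6 libraries were tested with limma 3.58.1 (R 4.3.3) on unscaled log2(FPKM + 0.5), using moderated two-sided tests with a variance trend and Benjamini-Hochberg adjustment over all of them at a threshold of 0.05. The fit was tested on simulated libraries. Folds on this scale understate changes of low genes. Ratios between related genes were compared by exact permutation (scipy 1.17.1). Replicates are numbered in the labels but not said to be separate animals, and p-values then reflect only how far these samples spread, which may be technical. All members may be named, and of the 22 further import genes the 3 largest changes in each direction. Members and lists were chosen with earlier results of these data known. Alternatives changed the pseudocount, filter, scaling, variance model, weights, replicate block and libraries used; those of the 22 further genes and the ATF4 genes were added after seeing the data. All 35 members matched RefSeq symbols (GRCm38.p6), which gave positions and, for 31, promoter windows.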

Additional observations from a re-analysis of the deposited data

How the results depend on the processing

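With 3 libraries a group the counts of import genes called moved easily. Leaving out a library also leaves fewer samples, and the part of this in the counts was not tested. Leaving out each replicate in turn gave 0 to 9 import genes higher and 2 to 7 lower, 1212 to 2153 of all loci higher and 1409 to 2389 lower, and 0 to 4 of the 22 further import genes higher. With no filter on low values, which tests more loci, 0 import genes were higher and 3 lower, while 17.5% of all loci were called. Scaling to the same summed FPKM gave 9 higher and 2 lower, with 3229 and 1400 of all loci and 7 further import genes higher. Quantile normalization gave 6 import genes higher and 9 lower, with 38.1% of all loci called. Array weights gave 7 higher and 11 lower, with 51.1% of all loci called, so calls rose over the whole table too. Of the further genes 3 and 5 were then higher, as were 2 under median-of-ratios scaling, and the cause was not tested. Same-numbered libraries had correlations of -0.08 to -0.01 in their deviations from the group means, and 0 of 6 correlated best with their own number. This gave no sign that the numbers pair the samples, but 3 libraries a group cannot exclude it. With the replicate number as a block 1 import gene (Grpel2) was higher and 3 (Tomm40l, Timm21 and Dnajc19) lower, while 27.4% of all loci were called. Timm22, Timm23, Mtx3, Gfer and Timm10b were then not called. Uncalled genes changed sign as follows, on the log2 scale, the cause not tested. Scaling to equal sums gave 0.20 for Tomm5, 0.0083 for Tomm22, 0.19 for Tomm70a, 0.10 for Mtx1, 0.020 for Mtx2, 0.057 for Pam16 and 0.048 for Pmpcb. Tomm5 was also 0.0086 under median-of-ratios scaling, 0.073 under quantile normalization and 0.24 with array weights, with which Tomm70a was 0.073 and Pam16 was 0.040. Over the replicates left out, Tomm5 ranged from -0.22 to 0.14, Tomm70a from -0.19 to 0.18, Timm9 from -0.035 to 0.15, Timm17a from -0.11 to 0.27, Timm17b from -0.048 to 0.29, Dnajc15 from -0.073 to 0.41, Pmpcb from -0.38 to 0.086, and the Timm17a to Timm17b ratio from -0.26 to 0.14. The other 4 ratios between related genes kept their direction under every alternative run.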
